A study of Mus musculus with 4 samples.

Results

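The HOXA genes, MEIS1 and the stem-cell factors HLF and MECOM were examined in 2 subpopulations of mouse common lymphoid progenitors (CLP), the bone marrow progenitors of B cells, T cells and natural killer cells. The 8 genes Hoxa3, Hoxa5, Hoxa7, Hoxa9, Hoxa10, Meis1, Hlf and Mecom were taken by symbol, and all 8 were measured, among 18193 genes in all. They were read by 19 of the 34945 probe sets that the platform annotation assigned to 1 gene, and 0 probe sets assigned to several genes named any of them. The 4 samples were 2 of CLP_RAGhigh and 2 of CLP_RAGlow cells, sorted from the bone marrow of C57Bl6 mice aged 8 to 12 weeks, and each array received labelled RNA from 2000 cells. Both groups therefore shared strain, age and tissue and differed in the sorted level of GFP, high or low, which the group names tie to RAG. The labels do not describe the GFP reporter or its allele, and although they call the replicates biological, they name no separate mice or sorts for them. The p-values therefore cover the spread of these 4 samples, which may be technical. Each sample is a bulk population, in which fewer cells of a type and less RNA per cell cannot be told apart. With 4 arrays, precision is limited throughout.

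HOX proteins are homeodomain transcription factors whose genes lie in clusters, and genes of the HOXA cluster are expressed in stem cells and early progenitors of the blood and are shut off as cells mature. MEIS1 belongs to the TALE homeodomain family, binds DNA together with HOX and PBX proteins, and acts with HOXA9 in normal progenitors and in leukaemia. HLF, a bZIP factor of the PAR family, and MECOM, a zinc finger factor whose locus gives the MDS1 and EVI1 products, are markers and regulators of haematopoietic stem cells. The comparison of CLP_RAGhigh with CLP_RAGlow shows how far transcripts of this early programme differed between the 2 progenitor fractions.

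The brightest probe sets of Hoxa3, Hoxa5, Hoxa7, Hoxa9, Meis1 and Hlf were above the median of all probe sets in both fractions. Those of Hoxa10 and Mecom were below it in CLP_RAGhigh. Hlf, Hoxa9, Hoxa7, Hoxa10, Mecom and Hoxa3 had lower means in CLP_RAGhigh than in CLP_RAGlow, with log2 differences from -1.45 (Mecom) to -0.06 (Hoxa3), while Hoxa5 and Meis1 had higher means, by 0.06 and 0.37. None of the 8 genes passed a limma adjusted p of 0.05 over all genes, and neither did any other of the 18193 genes. The smallest limma adjusted p among the 8 was 0.887.

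Promoter sequences around annotated transcript starts are shown for 3 genes outside the dim range. They are Hoxa9 from the HOX genes, Meis1 from the TALE family and Hlf from the PAR family. No sequence is shown for Mecom, a zinc finger factor. The arrays do not measure which start was used. All 8 genes had an entry in RefSeq's promoter table (GRCm38.p6), with 10 windows of 300 bases that run from 250 bases before to 50 after an annotated start. The Hoxa9 window is chr6:52227321-52227620, the Meis1 window chr11:19018920-19019219 and the Hlf window chr11:90390868-90391167, all on the minus strand and printed 5′ to 3′. Capitals mark matches to the motifs named after the sequences.
Hoxa9: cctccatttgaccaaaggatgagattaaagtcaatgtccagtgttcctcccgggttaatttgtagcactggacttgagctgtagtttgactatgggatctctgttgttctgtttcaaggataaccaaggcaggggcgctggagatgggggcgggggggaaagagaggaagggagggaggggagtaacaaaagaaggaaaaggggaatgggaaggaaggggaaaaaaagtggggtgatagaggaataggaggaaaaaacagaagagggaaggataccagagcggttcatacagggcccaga
Meis1: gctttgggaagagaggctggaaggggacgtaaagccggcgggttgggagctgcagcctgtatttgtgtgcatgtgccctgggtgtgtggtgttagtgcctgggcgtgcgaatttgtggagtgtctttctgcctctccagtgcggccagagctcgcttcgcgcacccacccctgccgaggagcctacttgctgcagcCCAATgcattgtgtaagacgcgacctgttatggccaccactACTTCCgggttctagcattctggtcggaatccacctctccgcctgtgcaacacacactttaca
Hlf: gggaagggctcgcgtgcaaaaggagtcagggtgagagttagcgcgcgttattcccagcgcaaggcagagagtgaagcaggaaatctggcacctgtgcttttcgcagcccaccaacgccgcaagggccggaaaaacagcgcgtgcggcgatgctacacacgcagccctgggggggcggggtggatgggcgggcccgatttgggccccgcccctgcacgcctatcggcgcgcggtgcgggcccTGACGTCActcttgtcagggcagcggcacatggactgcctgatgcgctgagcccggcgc

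The windows were searched on both strands for 6 motifs, which do not contain one another. The Hlf window held 1 match to TGACGTCA, the cyclic AMP response element, which 1.79% of all 32851 promoter windows hold, and the Meis1 window held a CCAAT box (CCAAT, 37.4% of all windows) and an ETS core (GGAAGT, 23.8%). The Hoxa9 window held none of the 6. The MEIS core TGACAG, present in 19.2% of all windows, was found in the Hoxa3 window and in 1 of the 2 Mecom windows. The PBX-HOX composite TGATTNAT (3.22% of all windows) and the PAR bZIP motif TTACNTAA (2.32%), to which HLF-type factors bind, were found in 0 of the 10 windows. The ratio of observed to expected CpG was 0.280 for Hoxa9, 0.589 for Meis1 and 0.893 for Hlf, against a median of 0.384 over all windows. These matches describe letters in a short window, and the arrays hold no measure of binding.

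Of the 8 genes, 5 lie on chromosome 6 in the HOXA cluster, Meis1 and Hlf lie on chromosome 11 and Mecom lies on chromosome 3. Signals are given as log2 of the deposited RMA intensity, for which the median of all probe sets was 3.90, and a group mean below that median is called dim, since a fold between dim values depends on the background. Of the 19 probe sets, 11 were above the median in both group means, 3 were dim in 1 group and 5 were dim in both. Where a gene had several probe sets, the one with the highest mean stood for it in the fit across genes, and the others come from a fit across all probe sets. Probe sets differ in how well they bind, so their levels are not ranked against each other.

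**Figure D1:**
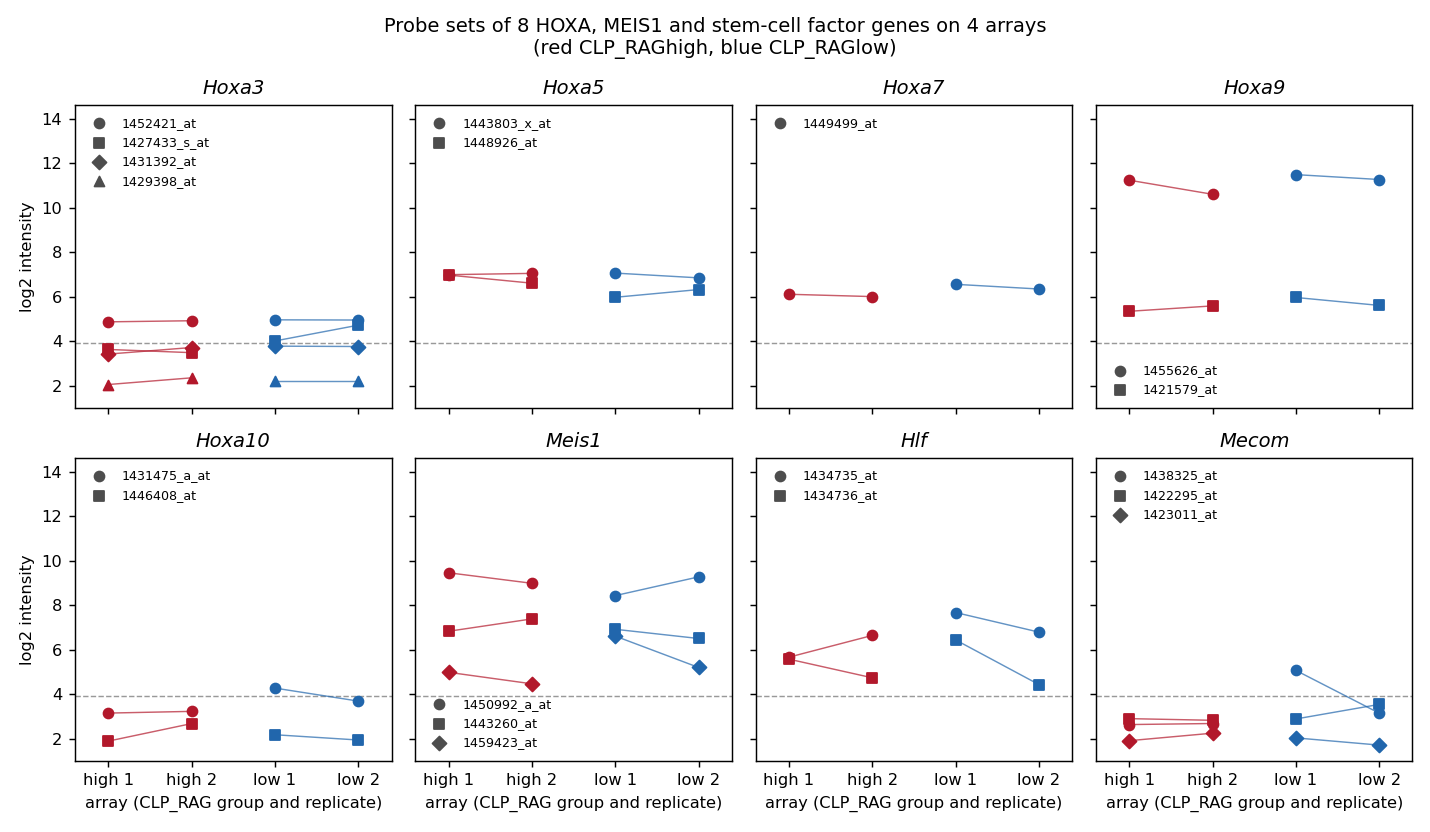
Log2 intensity (y axis) of every probe set of the 8 genes on the 4 arrays (x axis), with CLP_RAGhigh in red and CLP_RAGlow in blue, 1 marker shape a probe set, lines joining the arrays of a group, and a dashed line at 3.90, the median of all probe sets. Hoxa9 probe set 1455626_at lies between 10.60 and 11.48 on all arrays, and the Mecom probe sets lie below the dashed line except for 1438325_at on CLP_RAGlow replicate 1, at 5.06.

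Hoxa9, the HOX gene most closely tied to lymphoid and multipotent progenitors, was read by 2 probe sets. Probe set 1455626_at had log2 intensities of 11.23 and 10.60 in CLP_RAGhigh, against 11.48 and 11.26 in CLP_RAGlow. On every array it stood at or above at least 98.3% of probe sets, so its signal was bright in both fractions. Both CLP_RAGhigh arrays were below both CLP_RAGlow arrays, with CLP_RAGhigh replicate 2 the lowest of the 4. The means were 10.91 ± 0.45 and 11.37 ± 0.16 (SD, n = 2 each). They differed by -0.46 ± 0.24 (SE), with a 95% interval from -1.05 to 0.13 (limma adjusted p over all genes = 0.979). The difference was -0.14 without CLP_RAGhigh replicate 2 and -0.77 without CLP_RAGhigh replicate 1, so its size depends on which of these arrays is used. The other probe set, 1421579_at, had 5.34 and 5.58 in CLP_RAGhigh, against 5.96 and 5.60 in CLP_RAGlow. Its groups also did not overlap, although the gap between 5.58 and 5.60 is narrow, and its difference was -0.32 ± 0.36 (SE).

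Hoxa7, a neighbour of Hoxa9 in the cluster, had 1 probe set, 1449499_at, with 6.10 and 6.0 in CLP_RAGhigh, against 6.55 and 6.34 in CLP_RAGlow. The groups did not overlap, and the arrays within each group lay closer together than the groups. The difference was -0.39 ± 0.35 (SE, n = 2 per group), with a 95% interval from -1.25 to 0.46 (limma adjusted p over all genes = 1). It ran from -0.50 to -0.29 when any 1 array was left out.

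Hoxa10, which lies next to Hoxa9 and is expressed in stem and myeloid progenitor cells, gave dim signals. Probe set 1431475_a_at had 3.14 and 3.22 in CLP_RAGhigh, against 4.27 and 3.68 in CLP_RAGlow, so the groups did not overlap and only CLP_RAGlow replicate 1 was above the median of all probe sets. The difference was -0.79 ± 0.28 (SE, n = 2 per group), the only one of the 8 genes with an unadjusted limma p under 0.05 (adjusted p over all genes = 0.887). With an offset of 32 added before log2, which damps differences near the background, it was -0.22. The second probe set, 1446408_at, had 1.88 and 2.67 in CLP_RAGhigh, against 2.17 and 1.93 in CLP_RAGlow, with overlapping groups and a difference of 0.23 ± 0.29 (SE). The 2 probe sets thus had opposite signs, and the direction given for Hoxa10 is that of the brighter one.

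Hoxa5, from the middle of the cluster and known in blood from progenitors of several lineages, had a higher mean in CLP_RAGhigh on each of its 2 probe sets. That sign is opposite to Hoxa7, Hoxa9 and the brighter Hoxa10 probe set, but only 1 of the Hoxa5 probe sets separated the groups. Probe set 1448926_at had 6.97 and 6.60 in CLP_RAGhigh, against 5.97 and 6.32 in CLP_RAGlow. It was the only 1 of the 19 probe sets with both CLP_RAGhigh arrays above both CLP_RAGlow arrays, and its difference was 0.64 ± 0.37 (SE, n = 2 per group), with a 95% interval from -0.30 to 1.58 (limma adjusted p over all probe sets = 1). The brighter probe set, 1443803_x_at, had 6.98 and 7.04 in CLP_RAGhigh, against 7.06 and 6.84 in CLP_RAGlow. Its groups overlapped, and its difference of 0.06 ± 0.34 (SE) had a 95% interval from -0.79 to 0.92. The ending of its name marks probes that can bind other transcripts.

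Hoxa3, nearer the 3′ end of the cluster and best known from the thymus and parathyroid, had 4 probe sets, of which 1452421_at was nearly level at 4.87 and 4.91 in CLP_RAGhigh, against 4.96 and 4.95 in CLP_RAGlow. These groups did not overlap, yet the difference was only -0.06 ± 0.30 (SE, n = 2 per group), with a 95% interval from -0.79 to 0.67. Probe set 1427433_s_at, which is assigned to the same source sequence, had 3.62 and 3.48 in CLP_RAGhigh, against 4.01 and 4.72 in CLP_RAGlow. That is a difference of -0.81 ± 0.34 (SE), or -0.28 with the offset of 32, since its mean in CLP_RAGhigh was dim. The dim probe sets 1431392_at and 1429398_at differed by -0.20 ± 0.25 and 0.00 ± 0.16 (SE).

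Meis1 was read by 3 probe sets that did not move together. Probe set 1450992_a_at had 9.45 and 8.98 in CLP_RAGhigh, against 8.42 and 9.26 in CLP_RAGlow, and stood at or above at least 91.7% of probe sets on every array. The groups overlapped, with the lowest and the second highest value both in CLP_RAGlow. The difference was 0.37 ± 0.38 (SE, n = 2 per group), with a 95% interval from -0.57 to 1.31 (limma adjusted p over all genes = 1), and it was -0.05 without CLP_RAGlow replicate 1. Probe set 1443260_at had 6.82 and 7.38 in CLP_RAGhigh, against 6.91 and 6.50 in CLP_RAGlow, an overlap with a difference of 0.40 ± 0.39 (SE). Probe set 1459423_at had 4.97 and 4.46 in CLP_RAGhigh, against 6.60 and 5.20 in CLP_RAGlow, so it alone of the 3 separated the groups, and in the opposite direction, at -1.18 ± 0.57 (SE). Averaging the 3 gave -0.14, and no direction can be given for Meis1.

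Hlf had the largest difference among the genes that were not dim. Probe set 1434735_at had 5.66 and 6.63 in CLP_RAGhigh, against 7.66 and 6.78 in CLP_RAGlow. The groups did not overlap, but CLP_RAGhigh replicate 2 and CLP_RAGlow replicate 2 were close, and the outer values were those of the 2 arrays numbered 1. The means were 6.15 ± 0.69 and 7.22 ± 0.62 (SD, n = 2 each). CLP_RAGhigh was thus 2.11-fold lower, with a log2 difference of -1.08 ± 0.52 (SE) and a 95% interval from -2.36 to 0.20 (limma adjusted p over all genes = 0.971). It was -0.59 without CLP_RAGhigh replicate 1, -0.64 without CLP_RAGlow replicate 1, -1.57 without CLP_RAGhigh replicate 2 and -1.52 without CLP_RAGlow replicate 2. The second probe set, 1434736_at, is assigned to the same source sequence and had 5.57 and 4.73 in CLP_RAGhigh, against 6.43 and 4.43 in CLP_RAGlow. Here CLP_RAGlow held both the highest and the lowest value, and the difference was -0.28 ± 0.76 (SE), which became 0.72 without CLP_RAGlow replicate 1.

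Mecom had the largest difference of the 8 genes and rested on 1 array. Probe set 1438325_at had 2.63 and 2.68 in CLP_RAGhigh, against 5.06 and 3.14 in CLP_RAGlow. Only CLP_RAGlow replicate 1 was above the median of all probe sets, while the other 3 arrays were dim. The difference was -1.45 ± 0.60 (SE, n = 2 per group), with a 95% interval from -2.94 to 0.03 (limma adjusted p over all genes = 0.930), and it was -0.49 without CLP_RAGlow replicate 1, -2.41 without CLP_RAGlow replicate 2 and -0.43 with the offset of 32. The 2 probe sets that carry a RefSeq transcript of Mecom in the annotation were dim in both groups. Probe set 1422295_at had 2.89 and 2.82 in CLP_RAGhigh, against 2.88 and 3.53 in CLP_RAGlow, with overlapping groups and a difference of -0.35 ± 0.28 (SE). Probe set 1423011_at had 1.90 and 2.24 in CLP_RAGhigh, against 2.03 and 1.71 in CLP_RAGlow, a difference of 0.21 ± 0.19 (SE).

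**Figure D2:**
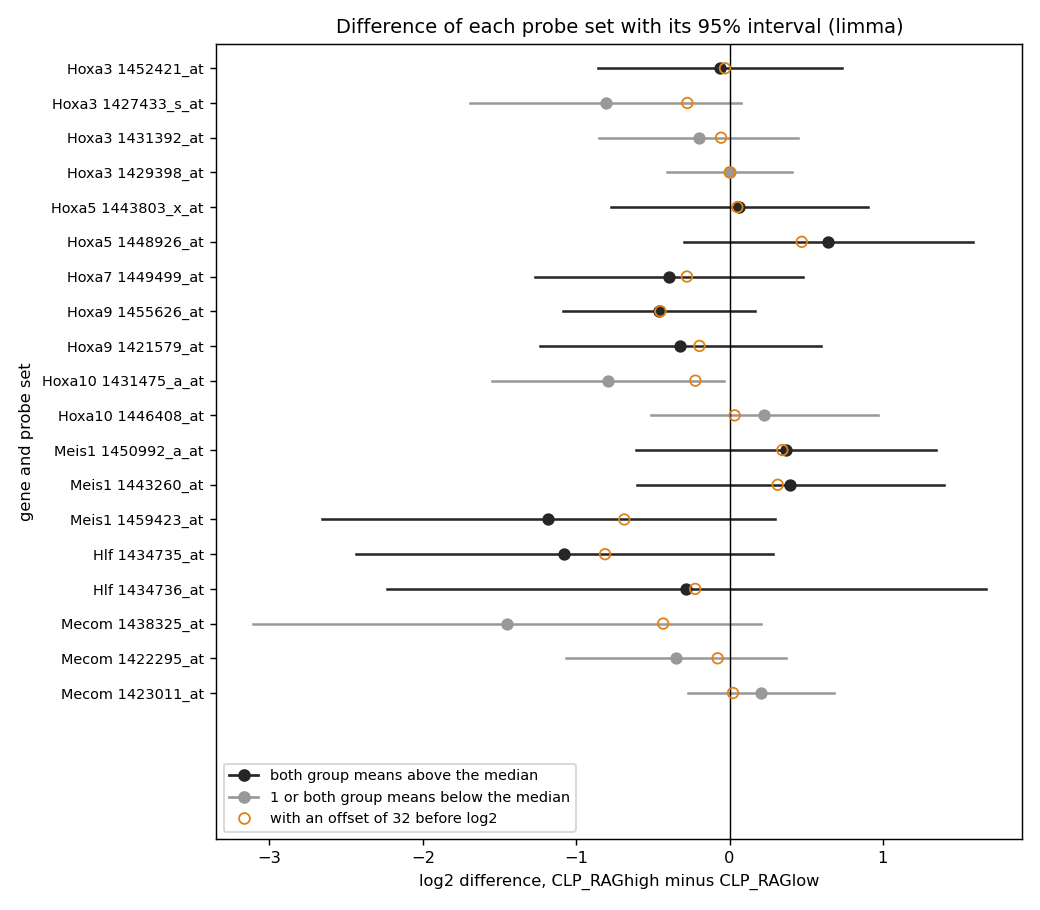
Log2 difference, CLP_RAGhigh minus CLP_RAGlow (x axis), for each of the 19 probe sets (y axis), as points with 95% intervals from the limma fit across all probe sets (n = 2 per group), in dark grey where both group means are above the median of all probe sets and in light grey otherwise, with open circles for the difference after an offset of 32. The intervals include 0 for all probe sets except Hoxa10 1431475_a_at, whose difference shrinks to -0.22 with the offset.

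Taking the 8 genes as a set, the mean was lower in CLP_RAGhigh for 6 and higher for 2, where 49.4% and 50.6% of all genes were. All 6 had both CLP_RAGhigh arrays below both CLP_RAGlow arrays and 0 had them above, where 15.8% of all genes were separated below and 15.4% above. The 6 were Hoxa3, Hoxa7, Hoxa9, Hoxa10, Hlf and Mecom, and the separation was very small for Hoxa3. The median difference was -0.43 over the 8 genes and 0.00 over all genes. Of the 19 probe sets, the mean was lower for 13 and higher for 6, against 48.5% and 51.5% of all probe sets. The 13 include Hoxa3 1429398_at, whose group means were equal at 2.20 and which has no direction. Among the 19, 10 were separated below and 1 above, against 15.2% and 15.5% of all probe sets, and their median difference was -0.28. At an unadjusted limma p under 0.05, 1 of the 8 genes was lower in CLP_RAGhigh and 0 were higher, where 2.94% and 2.35% of all genes were, with 1 and 0 of the 19 probe sets against 2.56% and 2.24%. At an adjusted p under 0.05 the share was 0% of all genes in either direction. The genes were chosen with earlier results of these data known, and 5 of them share a cluster, so these counts describe the set and no test of it was made. With the probe sets of each gene averaged, 4 genes were separated below and 1, Hoxa5, above. The median over the 8 genes was -0.25 with the offset of 32. It was -0.23, with 5 genes separated below and 1 above, when probe sets named _s_, _x_ or _a_, whose probes fit several transcripts, were left out. When only those named _s_ or _x_ were left out, an alternative chosen after seeing the data, the median stayed at -0.43, with 6 separated below and 1 above.

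High values were concentrated on 1 array. Of the 19 probe sets, 11 had their highest value on CLP_RAGlow replicate 1, where 25.8% of all probe sets did, while 4 had it on CLP_RAGhigh replicate 2 and 2 each on CLP_RAGhigh replicate 1 and CLP_RAGlow replicate 2. Without CLP_RAGlow replicate 1, 7 of the 8 genes had a lower mean in CLP_RAGhigh, where 44.9% of all genes did, with Meis1 now among them at -0.05, and the median difference was -0.32. Without CLP_RAGhigh replicate 2 the median was -0.24, which was the smallest of the 4, and without CLP_RAGlow replicate 2 it was -0.53.

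**Figure D3:**
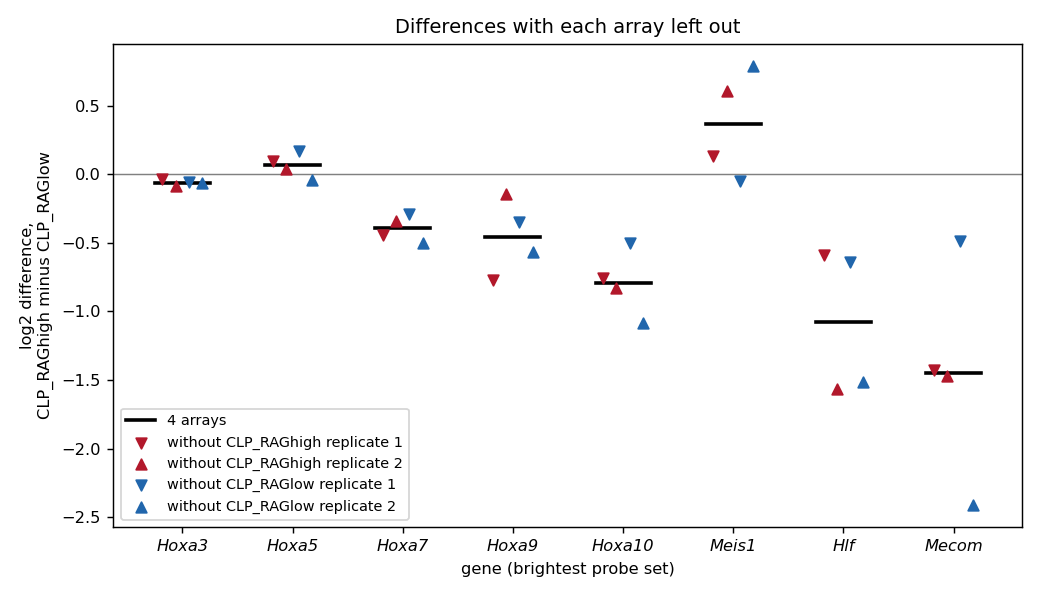
Log2 difference, CLP_RAGhigh minus CLP_RAGlow (y axis), of the brightest probe set of each gene (x axis), with black bars for all 4 arrays and triangles for the value with 1 array left out. All but Hoxa5 and Meis1 keep their side of 0, Mecom runs from -2.41 to -0.49 and Meis1 from -0.05 to 0.79.

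Facts of the arrays bear on these values. Median intensities were 14.5 to 14.8, and the ratio of the 3′ to the 5′ control probe set of Actb, which grows as RNA is copied mainly from the 3′ end, was 16.2 and 9.62 on the CLP_RAGhigh arrays, against 13.5 and 24.5 on the CLP_RAGlow arrays. Rag1, which encodes a subunit of the RAG recombinase, had 10.92 and 10.62 in CLP_RAGhigh, against 7.72 and 8.53 in CLP_RAGlow. Of 6 CLP markers (Il7r, Flt3, Kit, Ly6d, Dntt and Rag1), 0 were below the median of all probe sets on all arrays. Of the 6 stem and multipotent progenitor markers, 4 were measured, and Tek, Procr and Slamf1 were below the median on every array, so that Gata2, at 4.87 and 6.35 in CLP_RAGhigh and 5.79 and 5.45 in CLP_RAGlow, was the only 1 above it. The summed intensity of these 4 was 48.1 and 104.6 in CLP_RAGhigh, against 82.0 and 67.9 in CLP_RAGlow, and it overlapped between the groups. Summed intensities of 6 myeloid markers were 2511 and 2417 in CLP_RAGhigh, against 2916 and 3241 in CLP_RAGlow, and those of 4 B-cell markers 155.4 and 100.3, against 55.8 and 49.8. Those of the 5 measured erythroid and megakaryocyte markers were 187.2 and 130.6 in CLP_RAGhigh, against 117.6 and 68.8 in CLP_RAGlow. Among these 5, Gata1, Hba-a1 and Pf4 were below the median of all probe sets on every array. Klf1 had 6.94 and 6.05 in CLP_RAGhigh, against 5.24 and 3.70 in CLP_RAGlow. Gp9 had 4.97 and 4.90, against 5.63 and 4.88, and a lower mean in CLP_RAGhigh. Klf1 and Pf4 were separated above, and Gata1, Hba-a1 and Gp9 overlapped. The 6 CLP markers, Rag1 included, summed to 20133 and 16599 in CLP_RAGhigh, against 14147 and 15233 in CLP_RAGlow. The sums of these 4 lists separated the groups without overlap, but not every gene in them did. Of the myeloid markers, Csf1r had 6.79 and 8.26 in CLP_RAGhigh, against 9.31 and 9.54 in CLP_RAGlow. Csf3r was also separated below, Elane above, and Mpo, Prtn3 and Lyz2 overlapped. Of the B-cell markers, Pax5, Cd79a and Cd22 were separated above and Ms4a1 below. Of the CLP markers, Flt3 and Kit overlapped and the rest were separated above. The CLP sum includes Rag1, and the group names tie the sort to RAG. The part of these lists in the differences of the 8 genes was not tested. The sums of 5 T-cell markers and of 6 stromal and endothelial markers overlapped between the groups.

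Most of the other HOX genes measured had a mean below the median of all probe sets. Of the 6 other HOXA genes 4 were measured, all with a mean over the 4 arrays below the median of all probe sets. Hoxa2 had 4.06 and 3.99 in CLP_RAGhigh, against 3.53 and 3.02 in CLP_RAGlow, a difference of 0.75 ± 0.27 (SE, n = 2 per group) that was 0.21 with the offset of 32 and did not pass (limma adjusted p = 0.899). Hoxa4, Hoxa13 and Hoxa11 differed by 0.30, 0.05 and -0.01, with overlapping groups. Of 24 measured HOXB, HOXC and HOXD genes, the mean was higher in CLP_RAGhigh for 12 and lower for 12, with a median difference of 0.01. For 7 of these genes the mean over the 4 arrays was above the median of all probe sets. The 3 with the smallest p, Hoxd3 at 0.37 ± 0.17, Hoxb1 at -0.21 ± 0.14 and Hoxc5 at -0.30 ± 0.20 (SE), were dim in both groups.

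HOX proteins bind DNA with TALE partners, of which 9 of 10 were measured. In CLP_RAGhigh the mean was higher for 6 and lower for 3, with a median difference of 0.20, and 0 passed at an unadjusted limma p under 0.05. Pbx2, which stabilises HOX binding, had 6.84 and 6.35 in CLP_RAGhigh, against 6.27 and 6.04 in CLP_RAGlow, a difference of 0.44 ± 0.38 (SE) that was -0.08 with its 3 probe sets averaged. Pbx4 and Meis2 differed by -0.26 ± 0.24 and 0.21 ± 0.17 (SE), and Meis2 was dim in both groups. Averaging probe sets moved the number of TALE partners with a lower mean to 5 of 9.

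Genes of the MLL complex and its partners, which keep HOXA chromatin open, were above the median of all probe sets for 12 of 12 measured. Their mean was higher in CLP_RAGhigh for 7 and lower for 5, with a median of 0.21, and 0 passed at an unadjusted limma p under 0.05. Aff1, a fusion partner of MLL and part of elongation complexes, had 9.0 and 9.21 in CLP_RAGhigh, against 8.55 and 8.55 in CLP_RAGlow, a difference of 0.56 ± 0.27 (SE). Wdr5, a core subunit of the histone methyltransferase complexes, differed by -0.54 ± 0.37 (SE, -0.22 with its probe sets averaged), and Mllt10, a cofactor of DOT1L, by 0.51 ± 0.36 (SE, -0.04 with its probe sets averaged).

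Relatives of HLF and MECOM went in both directions. Of 6 measured, CLP_RAGhigh had the higher mean for 2 and the lower for 4, with a median of -0.08. Nfil3, a bZIP repressor that binds the same sites as the PAR factors, had 4.27 and 4.15 in CLP_RAGhigh, against 5.46 and 4.74 in CLP_RAGlow, a difference of -0.89 ± 0.36 (SE, -0.40 with the offset of 32, limma adjusted p = 0.928). Tef, a PAR factor like HLF, had 7.75 and 7.92 in CLP_RAGhigh, against 7.21 and 7.24 in CLP_RAGlow, a difference of 0.61 ± 0.33 (SE), opposite in sign to Hlf, with its 3 probe sets from 0.20 to 0.69. Prdm1, a repressor that shares the PR domain with MECOM, differed by 0.53 ± 0.35 (SE) and was dim in both groups.

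Genes linked to HOXA9 and MEIS1 in progenitors, all 14 of them measured, split into 7 higher and 7 lower in CLP_RAGhigh by their means, with a median of 0.06. At an unadjusted limma p under 0.05, 1 was higher and 3 were lower, where 2.35% and 2.94% of all genes were. Ccnd1, a cyclin of the G1 phase, had 6.11 and 6.42 in CLP_RAGhigh, against 7.42 and 7.91 in CLP_RAGlow, a difference of -1.40 ± 0.38 (SE, n = 2 per group, limma adjusted p = 0.766), with all 3 of its probe sets from -1.40 to -0.88. Cd34, the progenitor surface protein, had 8.72 and 9.48 in CLP_RAGhigh, against 10.33 and 10.11 in CLP_RAGlow, and no overlap between groups. Camk2d, a calcium-dependent kinase, differed by 2.13 ± 0.64 (SE), but its 7 probe sets ran from -1.37 to 2.13 and averaged -0.09.

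Among stem cell regulators and surface genes, 24 of 26 were measured, and the mean in CLP_RAGhigh was lower for 17 and higher for 7, with a median of -0.09, and 7 were separated below against 2 above, where 15.8% and 15.4% of all genes were. At an unadjusted limma p under 0.05, 3 were lower and 0 higher, against 2.94% and 2.35% of all genes, and none passed an adjusted p of 0.05. Gfi1b, a repressor that acts in stem cell and erythroid-megakaryocytic programmes, had 5.23 and 5.62 in CLP_RAGhigh, against 7.50 and 7.23 in CLP_RAGlow. The difference was -1.94 ± 0.37 (SE, n = 2 per group, limma adjusted p = 0.519). Ndn, an imprinted growth suppressor, had 4.46 and 4.06 in CLP_RAGhigh, against 6.66 and 6.88 in CLP_RAGlow, on a probe set whose name marks probes that can bind other transcripts. Its 8 probe sets ran from -5.06 to 0.03, and its difference of -2.51 was -1.46 with the offset of 32. Cdkn1c, an imprinted cell cycle inhibitor, had 3.29 and 3.43 in CLP_RAGhigh, against 4.82 and 4.55 in CLP_RAGlow, a difference that was -0.45 with the offset of 32. For each of these 3 genes the gap between the groups was wider than the spread within either group, which for Hlf and Mecom it was not. The 3 were named for the smallest p-values of their list, which favours a wide gap. No conclusion is therefore drawn from the contrast with Hlf and Mecom.

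**Figure D4:**
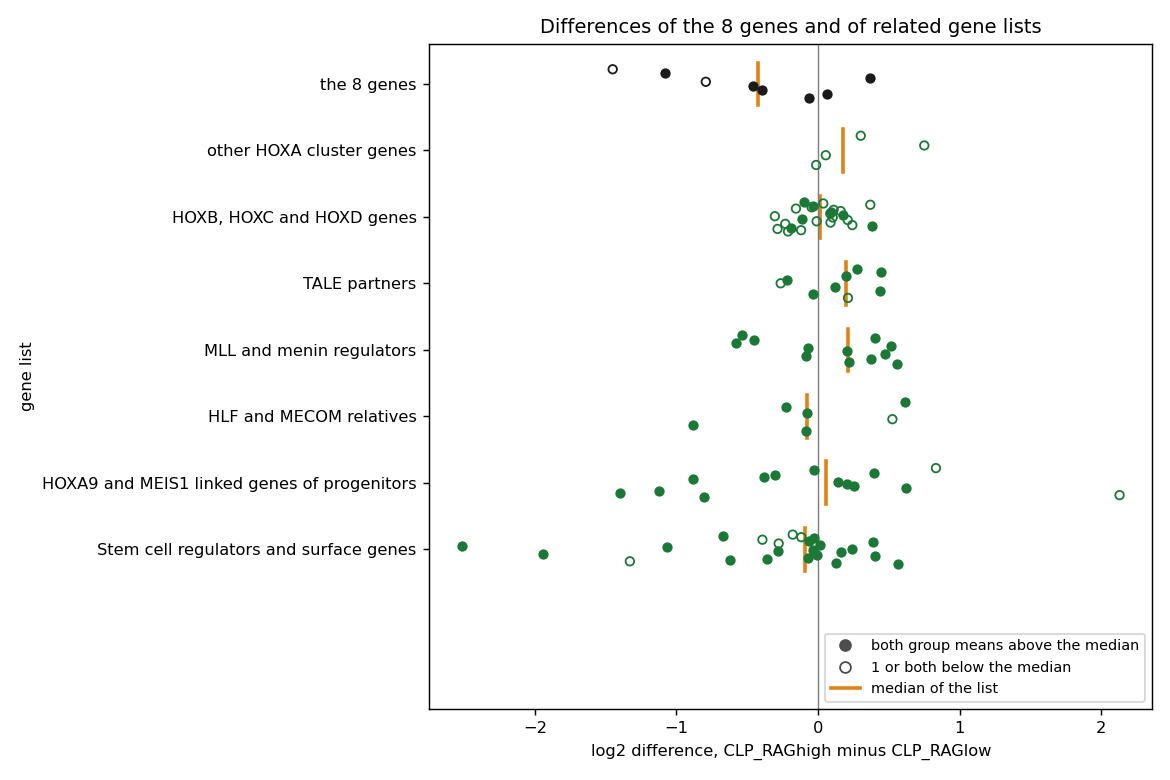
Log2 difference, CLP_RAGhigh minus CLP_RAGlow (x axis), of the 8 genes (top, black) and of the measured genes of 7 related lists (green), with filled points where both group means are above the median of all probe sets, open points otherwise, and an orange bar at each median. The median is -0.43 for the 8 genes and between -0.09 and 0.21 for the lists, in which Ndn at -2.51 and Camk2d at 2.13 are the outermost points.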

How the data were processed

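RNA from 2000 sorted cells per sample was labelled with biotin and hybridised to MOE430_2 arrays after dual amplification, per the labels and the series design. The deposited values are RMA intensities, 1 per probe set, per the labels' series design. They ran from 2.353 to 19892.5, so they are linear and were converted to log2 for every step. Software, version and build: not given in the sources used here. Detection calls are not part of RMA, so low expression and background are not separated.

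Of 45037 probe sets without the 64 controls, 34945 had 1 gene in the platform annotation, 932 had several and 9160 none. Gene IDs of 34741 were found in RefSeq's gene table, and 0 symbols changed. Each gene was represented by its brightest probe set (mean over the arrays). Groups come from the sample titles. Differences (CLP_RAGhigh minus CLP_RAGlow) were tested in R 4.3.3 with limma 3.58.1 (lmFit, then eBayes with an intensity trend, 2 residual and 3.75 prior degrees of freedom), two-sided, with Benjamini-Hochberg adjustment over 18193 genes or over 34945 probe sets and a threshold of 0.05. The fit was tested on simulated data. Figures were drawn with matplotlib 3.10.9.

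The 8 genes, the related lists and the alternatives were chosen with earlier results of these data known. Named genes are the 8 members, Rag1, the 4 other HOXA genes measured, the 3 smallest p-values of each list, and cell type markers used as a check.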

Additional observations from a re-analysis of the deposited data

How the results depend on the processing

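With 2 arrays per group, no replicate check beyond leaving out 1 array exists, and a p above the threshold does not show that levels were alike. The differences of the 8 genes were recomputed under each alternative, which gave 102 values, of which 98 kept their direction, 4 turned it and 0 passed an adjusted p of 0.05 (the lowest was 0.547). Those that turned were Hoxa10 without probe sets named _s_, _x_ or _a_ (0.23, where the one left out is named _a_, which marks transcripts of 1 gene; -0.79 without only those named _s_ or _x_), Meis1 with probe sets averaged (-0.14), and, when 1 array was left out, Meis1 (range -0.052 to 0.79) and Hoxa5 (-0.042 to 0.17). Of 183 values of single probe sets 8 turned: Hoxa3 1429398_at (0.0009 with the offset of 32, 0.0092 with array medians equalised, -0.15 to 0.15 with 1 array left out), and, with 1 array left out, Hoxa5 1443803_x_at (-0.042 to 0.17), Hoxa10 1446408_at (-0.17 to 0.62), Meis1 1450992_a_at (-0.052 to 0.79) and Hlf 1434736_at (-1.29 to 0.72). The group means of Hoxa3 1429398_at were equal in the main fit, so its values had no direction to turn from. The Hoxa10 and Mecom differences have no value without dim probe sets, since both fall below that limit.

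Over all genes 0 passed in either direction with limma (428 higher and 535 lower at an unadjusted p under 0.05). Higher in CLP_RAGhigh were 2 genes with probe sets averaged, 1 without dim probe sets, and 2 after quantile normalization again, which also gave 1 lower. With the replicate block, 5 genes were higher and 2 lower, none of them among the 8, and 0 probe sets passed. The unadjusted limma p with the block fell for Mecom (0.0540 to 0.0137) and Hoxa9 (0.1060 to 0.0526). It rose for the other genes of the 8, such as Hoxa10 (0.0294 to 0.0453). Deviations of same-numbered arrays from their group means correlated at -0.025 across genes. The numbers are not taken to pair the samples, although 1 such correlation cannot exclude a shared sort or batch. Genes with a lower mean numbered 2 of the other HOXA genes and 5 of the TALE partners with probe sets averaged. With 1 array left out the ranges were 1 to 2 for the other HOXA genes and 9 to 16 for the HOXB, HOXC and HOXD genes. They were 2 to 4 for the TALE partners, 3 to 6 for the MLL and menin regulators and 2 to 4 for the relatives of HLF and MECOM. For the genes linked to HOXA9 and MEIS1 the range was 5 to 10, and for the stem cell regulators and surface genes 14 to 18. The cause of these changes was not tested.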
